A study of Mus musculus with 10 samples.

Results

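Neb, Arl5a, Laptm4b and Matn2 are 4 of the 27179 genes in the count table, and they form 2 pairs of neighbours, Arl5a with Neb on chromosome 2 and Laptm4b with Matn2 on chromosome 15. They were chosen by symbol because all 4 had been called lower in gut regulatory T cells without c-Maf and because the genes of each pair lie within 100 kb of each other. The gut difference between genotypes is therefore what chose them, and it is given as a description without a test. The genotype difference in spleen was not part of the choice and is tested. The spleen libraries are not independent of it, since the gut calls came from 1 fit of all 10 libraries that share an estimate of the spread.

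Regulatory T cells (Tregs) dampen immune responses and depend on the transcription factor Foxp3. They were sorted by T cell receptor beta and a YFP reporter of Foxp3 from gut (colon plus small intestine) and spleen of C57BL/6 mice, and their RNA was sequenced. The Maf-KO mice carried floxed Maf alleles together with Foxp3Cre-YFP (Maffl/fl x Foxp3Cre-YFP), and the control mice, called WT, carried Foxp3Cre-YFP alone. There were 2 Maf-KO gut, 2 WT gut, 3 Maf-KO spleen and 3 WT spleen libraries, with 8567035 to 13983965 counts each. Both genotypes carry the Cre and the reporter at Foxp3, so the deletion is directed at Foxp3-expressing cells in general and not at gut Tregs alone. The labels give no age and do not say whether animals were pooled or whether each replicate is a separate animal, so the p values measure the spread between these samples. The titles of 4 of the 6 spleen libraries carry the same number as a gut library.

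c-Maf is a basic leucine zipper transcription factor of the AP-1 superfamily that binds DNA elements called MAREs. In intestinal Tregs it is known for its part in the RORgt-expressing subset and in IL-10 production. None of the 4 genes is a classical T cell gene. Arl5a encodes a small GTPase of the trans-Golgi, Neb encodes nebulin, the giant actin-binding protein of skeletal muscle thin filaments, Laptm4b encodes a membrane protein of late endosomes and lysosomes, and Matn2 encodes matrilin-2, an adaptor protein of extracellular matrix filaments.

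Both pairs have the same layout, with the genes in tandem on 1 strand. On chromosome 2 (GRCm38, minus strand) RefSeq places Arl5a from 52397949 to 52424874 and Neb from 52136640 to 52338798, so that Arl5a is upstream and Neb downstream with 59.2 kb between them. GENCODE extends Neb at its 5′ end to 52378474, which leaves a gap of 19.5 kb. On chromosome 15 (plus strand) RefSeq places Laptm4b from 34238026 to 34284295 and Matn2 from 34306681 to 34436242, with 22.4 kb between them. All 4 are protein-coding. In GENCODE the transcript with the most exons has 6 in Arl5a, 157 in Neb, 7 in Laptm4b and 19 in Matn2. Among the 20 genes called in gut, the pair of Rnase4 and Ang, whose gene models overlap, was the other pair within 100 kb. The nearest called genes beyond that limit were Il10 and Prg4, 19420 kb apart on chromosome 1. The counts are per whole gene, so reads of 1 continuous transcript across a gap could not be told from reads of separate transcripts, and this was not tested.

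The promoter of Arl5a is shown because Arl5a is the upstream gene of the pair on chromosome 2 and the most abundant of the 4 genes. The RefSeq promoter table held 1 of the 4 members. The window covers 250 bases before and 50 bases after the gene start, at chr2:52424825-52425124 on the minus strand (GRCm38.p6), and is written 5′ to 3′ with matches to the CCAAT box and to the GC box in capitals.
Arl5a: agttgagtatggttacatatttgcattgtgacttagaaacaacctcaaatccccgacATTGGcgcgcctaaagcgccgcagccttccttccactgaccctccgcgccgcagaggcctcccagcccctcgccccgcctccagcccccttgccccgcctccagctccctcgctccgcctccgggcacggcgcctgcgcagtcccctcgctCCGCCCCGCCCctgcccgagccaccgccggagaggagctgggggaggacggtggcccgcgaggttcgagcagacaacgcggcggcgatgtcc

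Guanine and cytosine made up 69.0% of this window. It held 1 match to the CCAAT box (CCAAT), which 37.4% of the 32851 promoters in the table hold, and 2 matches to the GC box that overlap by 1 base (GGGCGG), held by 35.7%, with all 3 matches on the opposite strand. Both strands were searched. There was no match to the T-MARE (in 0.00304% of promoters), the C-MARE (in 0% of promoters), the MARE core (TGCTGAC, 4.67%, contained in both MAREs), the AP-1 site (TGANTCA, 7.81%, which overlaps the T-MARE), the forkhead site (TGTTTAC, 3.65%) or the TATA box (TATAAA, 13.6%). These letters were searched in this window alone.

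The deletion was visible in the RNA of every Maf-KO library. Maf had 7 and 3 counts in Maf-KO gut and 2, 10 and 2 counts in Maf-KO spleen, against 859 and 918 counts in WT gut and 337, 312 and 484 counts in WT spleen. The sorted cells carried the Treg markers Cd3e, Cd4, Foxp3, Il2ra and Ctla4, with a summed level of 7931 to 8048 CPM (read counts relative to the normalised library total, scaled to 1e6) in Maf-KO gut and 7100 to 7977 CPM in WT gut. In spleen the same sum was 2612 to 2886 CPM in Maf-KO and 2480 to 3162 CPM in WT. None of the 5 markers was called in either genotype comparison, where 0.151% of all genes were called in gut and 0.0151% in spleen.

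Arl5a was by far the most abundant of the 4 genes, and its level in WT gut stood apart from all other groups. It had 216 and 242 CPM in Maf-KO gut, against 634 and 909 CPM in WT gut. In spleen it had 120, 135 and 132 CPM in Maf-KO, against 168, 168 and 244 CPM in WT. The groups did not overlap in either tissue, and Maf-KO gut lay within the range of WT spleen. The difference in gut was -1.75 on the log2 scale (SE 0.22), a level 3.37 times as high in WT gut as in Maf-KO gut.

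Neb followed the same order of groups at a lower level. It had 43.0 and 55.0 CPM in Maf-KO gut, against 240 and 189 CPM in WT gut. Neb in spleen had 9.0, 11.6 and 11.4 CPM in Maf-KO, against 43.5, 26.2 and 47.5 CPM in WT. Again Maf-KO gut overlapped WT spleen, and Maf-KO spleen was lowest. The log2 difference in gut was -2.13 (SE 0.26), 4.37 times as high in WT gut as in Maf-KO gut.

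Laptm4b was a gene of low level whose only low group was Maf-KO gut. It had 40 and 60 counts in Maf-KO gut (3.48 and 4.79 CPM), against 100 and 113 counts in WT gut (12.6 and 13.4 CPM). Laptm4b in spleen had 8.89, 9.58 and 10.7 CPM in Maf-KO, against 12.1, 11.4 and 11.2 CPM in WT. The 8 libraries outside Maf-KO gut thus lay between 8.89 and 13.4 CPM. The gut difference was -1.64 on the log2 scale (SE 0.23), 3.13 times as high in WT gut as in Maf-KO gut.

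Matn2 was highest in WT spleen, unlike the other 3 genes. It had 14 and 28 counts in Maf-KO gut (1.22 and 2.23 CPM), against 58 and 99 counts in WT gut (7.28 and 11.7 CPM). Counts this low are imprecise, and the exact 95% Poisson interval of 14 counts runs from 7.65 to 23.5 counts, for counting error alone. In spleen Matn2 had 7.81, 10.2 and 12.4 CPM in Maf-KO, against 17.2, 21.8 and 23.1 CPM in WT. Maf-KO spleen overlapped WT gut, so the order was WT spleen, then these 2 groups, then Maf-KO gut. The gut difference was -2.45 on the log2 scale (SE 0.38), 5.45 times as high in WT gut as in Maf-KO gut.

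**Figure D1:**
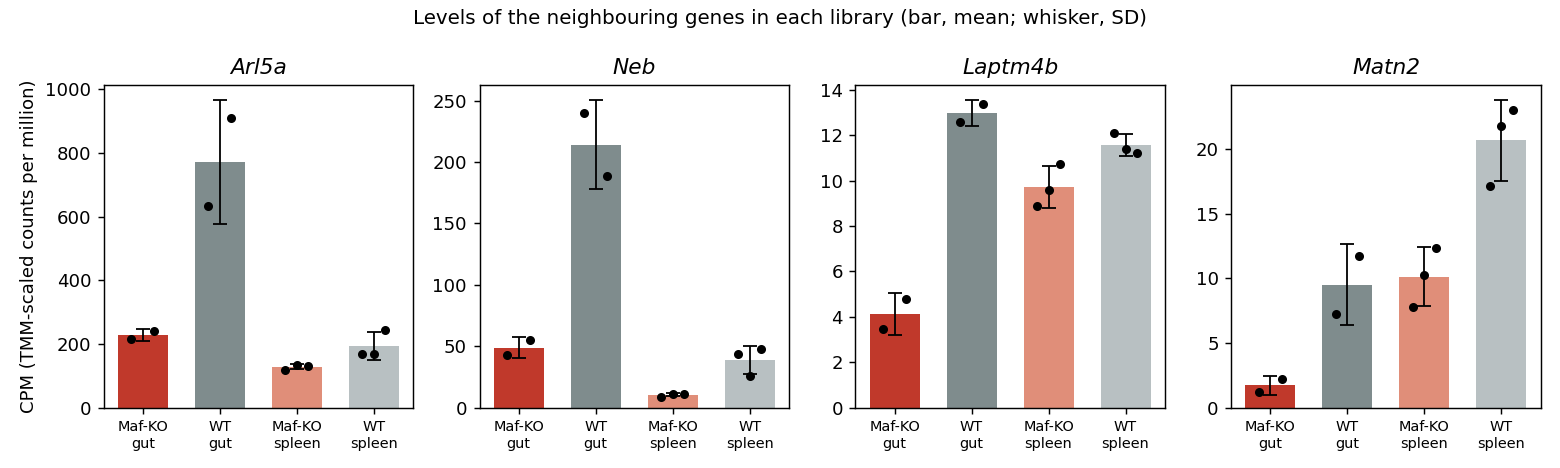
Level of Arl5a, Neb, Laptm4b and Matn2 in CPM on the vertical axis for Maf-KO gut, WT gut, Maf-KO spleen and WT spleen, with points for libraries, bars for means and whiskers for the SD. Arl5a and Neb peak in WT gut, Laptm4b is low in Maf-KO gut alone, and Matn2 is highest in WT spleen.

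All 4 members were called lower in gut by the rule that chose them, where 0.136% of the 13214 genes tested were called lower. The call was lost for 3 members with gut libraries alone (1 called), for 2 with the replicate number as a block (2 called), and for all 4 without WT gut replicate 3 or without either Maf-KO gut library (0 called). Limma-voom called 3 members and 33 genes, and with the number in the sample titles as a random effect 4 members and 42 genes, against 20 genes by edgeR. All 4 had gut groups that did not overlap, as did 18.8% of all genes in that direction, and all had an unadjusted p under 0.05, as did 4.58% of all genes in that direction. Nothing is read from these counts. In bulk RNA, fewer cells of a type that carries the gene and less RNA per cell cannot be told apart.

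Levels of different genes were compared per transcript length, with the authors' log2 FPKM values (fragments scaled by transcript length and library size), which listed all 4 members. On that scale Arl5a averaged 40.8 FPKM (SD 3.02, n = 2) in Maf-KO gut and 139 FPKM (SD 30.5, n = 2) in WT gut, above 95.9% of the 12252 listed genes in WT gut. Neb averaged 2.02 FPKM (SD 0.339) in Maf-KO gut and 9.02 FPKM (SD 1.81) in WT gut, where it lay above 46.4% of listed genes. Laptm4b averaged 2.04 FPKM (SD 0.441) in Maf-KO gut and 6.46 FPKM (SD 0.0653) in WT gut. For Matn2 the means were 0.462 FPKM (SD 0.187) in Maf-KO gut and 2.54 FPKM (SD 0.753) in WT gut. The many reads of Neb come with a long transcript. In the first WT gut library the ratio of its count to its FPKM corresponds to a length of 22.5 kb, against 5.21 kb for Arl5a.

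The spleen comparison asked whether the 4 genes were also lower without c-Maf in a contrast other than the one that chose them. Neb came closest, with a mean of 10.7 CPM (SD 1.43, n = 3) in Maf-KO spleen and 39.1 CPM (SD 11.3, n = 3) in WT spleen. Its log2 difference was -1.87 (SE 0.23), 3.65 times as high in WT spleen as in Maf-KO spleen. Its edgeR adjusted p of 0.0512 missed the threshold of 0.05, as the third smallest of 13214 p values behind Maf and 1 other gene. DESeq2 called Neb (adjusted p = 5.027e-11), and so did edgeR without the filter on low counts (0.0001763) and edgeR without WT spleen replicate 2 (0.00331), the WT spleen library with the least Neb. Over all 18 alternatives the adjusted p ran from 5.027e-11 to 0.479, the highest with limma-voom and the title number as a random effect.

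Matn2 averaged 10.1 CPM (SD 2.28) in Maf-KO spleen and 20.7 CPM (SD 3.10) in WT spleen, a log2 difference of -1.02 (SE 0.27, edgeR unadjusted p = 0.00347, adjusted p = 0.999). Arl5a averaged 129 CPM (SD 7.74) in Maf-KO spleen and 193 CPM (SD 43.8) in WT spleen, a log2 difference of -0.59 (SE 0.18, edgeR unadjusted p = 0.00759, adjusted p = 0.999). The smallest difference was that of Laptm4b, with 9.73 CPM (SD 0.922) in Maf-KO spleen and 11.6 CPM (SD 0.470) in WT spleen. Its log2 difference was -0.25 (SE 0.18, edgeR unadjusted p = 0.199, adjusted p = 0.999). None of these 3 was called by any of the 18 alternatives.

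Counted together, 0 of the 4 members were called in spleen by edgeR, where 0.0151% of all genes were called, 3 of 4 had an unadjusted p under 0.05 and were lower (1.48% of all genes), and DESeq2 called 1, where it called 0.0991% of genes lower. Limma-voom called 0 members and 0 genes in spleen, with and without the title number as a random effect, against 2 genes by edgeR. In all 4 members the 3 Maf-KO spleen libraries lay below the 3 WT spleen libraries without overlap, which held for 3.9% of all genes. Lower in both tissues without overlap were all 4 members and 1.29% of all genes, a share that contains the gut contrast. The median log2 difference of the members in spleen was -0.81, and that of all genes tested was -0.01. Of 10117 pairs of adjacent tested genes under 100 kb apart, 30 pairs (0.297%) had both genes lower in spleen without overlap. Both pairs described here were among them, which follows from the values of the 4 members and is no further result.

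**Figure D2:**
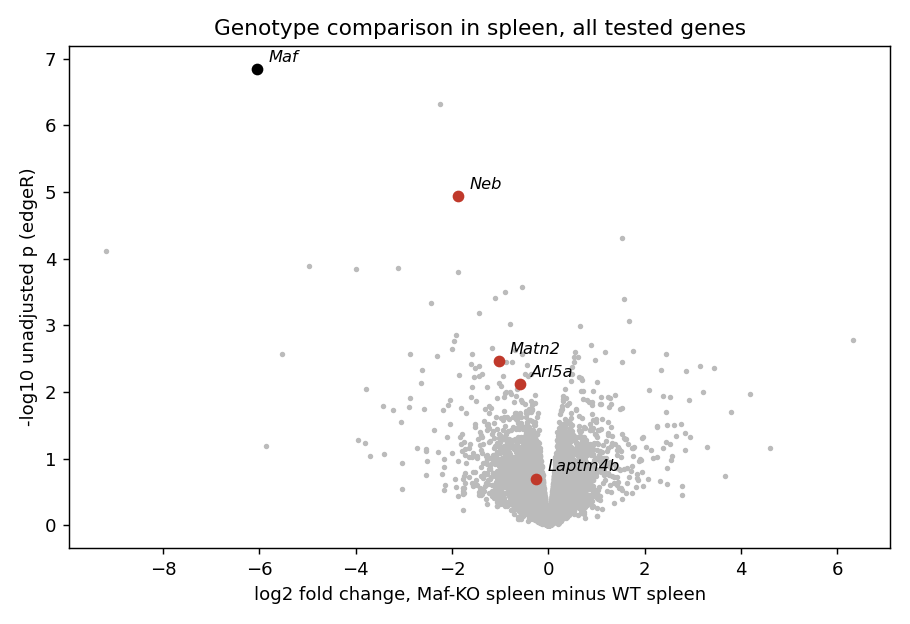
Log2 fold change of Maf-KO spleen against WT spleen (horizontal axis) and -log10 of the unadjusted edgeR p (vertical axis), with a point for each of 13214 genes. Neb stands near the top behind Maf, Matn2 and Arl5a lie lower, and Laptm4b lies within the mass of genes.

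The title numbers tie 4 spleen libraries to the gut libraries that chose the members. Maf-KO spleen replicate 1 and WT spleen replicate 2 carry numbers of no gut library. The spleen groups did not overlap in any member, so these 2 libraries had to show the same directions, which adds no support. This Maf-KO library was also the lowest of Maf-KO spleen in all 4 members, and each ratio rests on 1 library per genotype. Neb had 9.0 CPM in this Maf-KO library and 26.2 CPM in this WT library, 2.91 times as high in WT. The ratio of WT to Maf-KO in these libraries was 2.79 for Matn2, 1.40 for Arl5a and 1.28 for Laptm4b.

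The level of 1 gene of a pair relative to the other was compared in spleen as well. In Maf-KO spleen the log2 FPKM of Neb minus that of Arl5a was -5.84, -5.65 and -5.64, against -4.06, -4.79 and -4.47 in WT spleen. Neb was thus lower relative to Arl5a in every Maf-KO spleen library, by -1.27 on average, with an exact two-sided permutation p of 0.1, the smallest that 3 against 3 libraries allow, so the difference could not pass a threshold of 0.05. For Laptm4b minus Matn2 the values were 1.08, 0.80 and 0.68 in Maf-KO spleen, against 0.39, -0.042 and -0.15 in WT spleen, a mean difference of 0.79 with the same exact permutation p of 0.1. Adjusted over these 2 comparisons both p values stayed at 0.1. In both pairs the downstream gene had the lower relative level in Maf-KO spleen, in all 3 libraries. In gut the Neb minus Arl5a values overlapped, with -4.44 and -4.24 in Maf-KO and -3.51 and -4.38 in WT. The Laptm4b minus Matn2 values in gut were 2.39 and 1.98 in Maf-KO and 1.68 and 1.08 in WT.

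Set against each other, the genotype differences of gut and spleen were close for Neb and further apart for the other 3 genes. The gut difference minus the spleen difference was -0.26 (SE 0.35) on the log2 scale for Neb, -1.17 (SE 0.28) for Arl5a, -1.40 (SE 0.29) for Laptm4b and -1.42 (SE 0.46) for Matn2. These values contain the gut contrast that chose the genes, so they carry no test.

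The tissues set the 2 pairs apart. Arl5a and Neb were higher in gut, with log2 differences of WT gut over WT spleen of 2.0 (SE 0.19) for Arl5a and 2.46 (SE 0.23) for Neb. Matn2 went the other way at -1.12 (SE 0.31), and Laptm4b stood at 0.17 (SE 0.20). Without c-Maf, gut over spleen was 0.83 (SE 0.19) for Arl5a, 2.20 (SE 0.25) for Neb, -1.23 (SE 0.21) for Laptm4b and -2.54 (SE 0.36) for Matn2. The values for Neb were close in both genotypes, whereas those for Arl5a, Laptm4b and Matn2 were lower in Maf-KO. These values are descriptions too, since they contain the gut libraries. Their change between genotypes is the same quantity as the gut difference minus the spleen difference given above, and not a further result. Groups without overlap are common between tissues, with 25.9% of all genes higher and 27.5% lower in WT gut than in WT spleen, and 27.5% higher and 28.9% lower in Maf-KO gut than in Maf-KO spleen.

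Ratios of libraries with the same title number use the same gut libraries, so they show the spread of this comparison and are no separate evidence. Gut over spleen for Neb was 3.72 and 4.82 in Maf-KO and 5.51 and 3.97 in WT, ranges that overlap. For Arl5a it was 1.60 and 1.83 in Maf-KO, below the 3.77 and 3.72 in WT. Laptm4b had ratios of 0.363 and 0.447 in Maf-KO, against 1.04 and 1.19 in WT. Matn2 had 0.119 and 0.181 in Maf-KO, against 0.425 and 0.508 in WT.

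None of the genes around the pairs was called. Within 500 kb of either outer end the count table holds 20 other genes, of which 12 passed the filter on low counts. None of the 12 was called in gut or in spleen by edgeR. Over all genes it called 0.151% in gut and 0.0151% in spleen, so 0 of 12 called says little about the neighbourhood. Lower without overlap of the groups were 3 of the 12 in gut (18.8% of all genes) and 0 in spleen (3.9% of all genes). In gut the lowest unadjusted p among the 12 was 0.0109, that of Cacnb4, and in spleen it was 0.125, that of Rpl30. Around Arl5a and Neb the median log2 difference of 7 flanking genes was -0.09 in gut and -0.07 in spleen, and around Laptm4b and Matn2 that of 5 genes was -0.12 in gut and -0.0038 in spleen.

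The flanking genes with higher counts had smaller differences. Rif1, a regulator of replication timing that lies just beyond the 3′ end of Neb on the other strand, stood at -0.04 (SE 0.14) in gut and 0.05 (SE 0.11) in spleen. Stam2, an endosomal sorting gene upstream of Arl5a, stood at -0.10 (SE 0.12) in gut and 0.04 (SE 0.10) in spleen. Mtdh, the gene next to Laptm4b on its upstream side, stood at -0.12 (SE 0.11) in gut and -0.05 (SE 0.09) in spleen. On the downstream side of Matn2, the ribosomal protein gene Rpl30 was at -0.03 (SE 0.24) in gut and -0.33 (SE 0.20) in spleen.

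Cacnb4, which encodes a beta subunit of voltage-gated calcium channels, was the flanking gene with the largest difference. It lies directly upstream of Arl5a on the same strand, and its 3′ end comes first. It had 7 and 14 counts in Maf-KO gut, against 18 and 31 counts in WT gut, a log2 difference of -1.76 (SE 0.56, edgeR adjusted p = 0.446). In spleen its counts were 3, 3 and 7 in Maf-KO and 7, 6 and 11 in WT (log2 difference -0.62, SE 0.55, edgeR adjusted p = 0.999). It was called in neither tissue.

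2 further genes lie inside members. The noncoding gene 4930573O16Rik within Neb had 52 counts over all libraries and 9430069I07Rik within Matn2 had 5, so neither was tested. Whether the counting used strand is not given in the sources used here, and reads of overlapping genes could not be told apart.

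**Figure D3:**
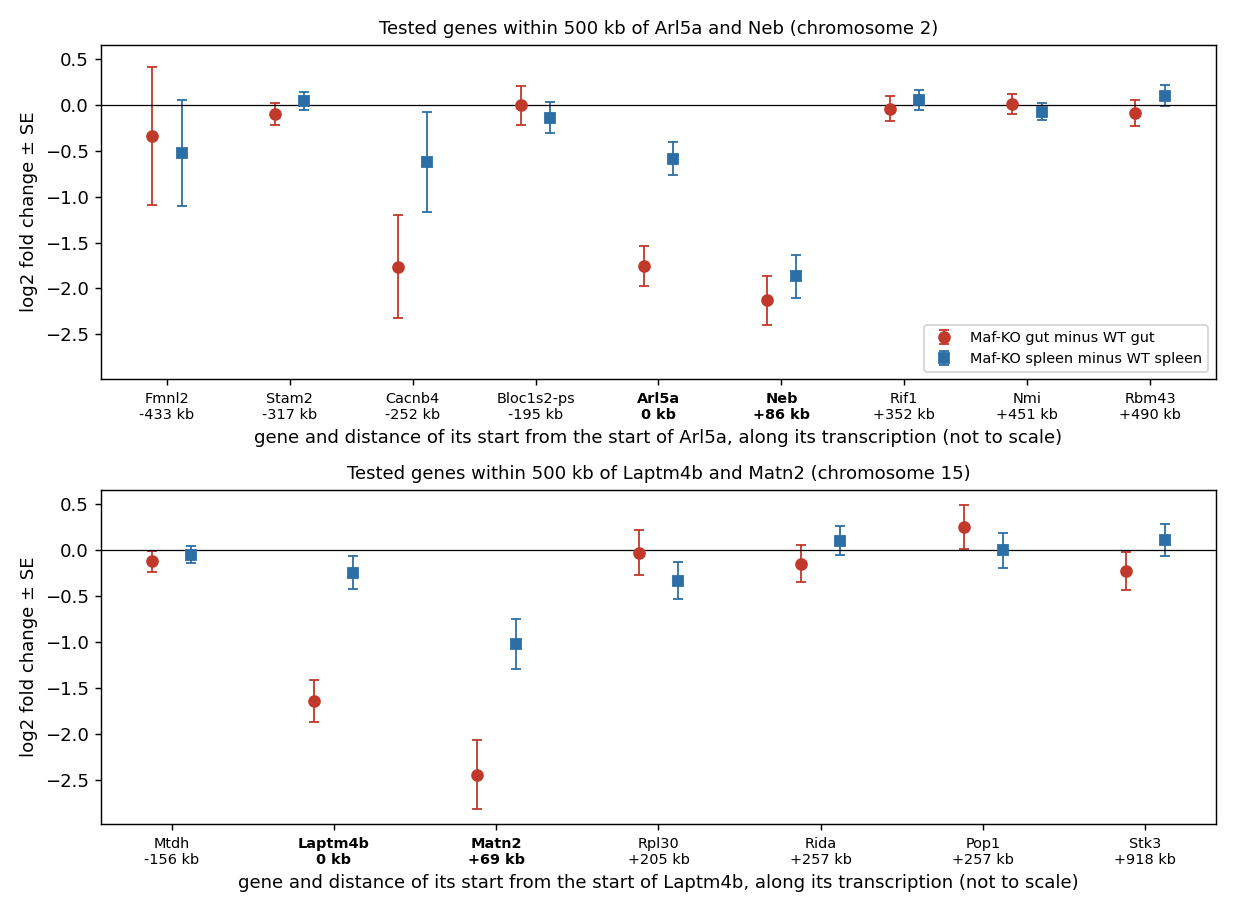
Log2 fold changes with SE of the tested genes within 500 kb of Arl5a and Neb (top) and of Laptm4b and Matn2 (bottom), for Maf-KO gut against WT gut (circles) and Maf-KO spleen against WT spleen (squares), ordered along the direction of transcription of each pair and not to scale. The members and Cacnb4 lie at -1.64 or below in gut, while the other flanking genes lie between -0.34 and 0.25.

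None of the paralogues of the members was called. Of the ARL5 family, Arl5b stood at 0.07 (SE 0.24) in gut and -0.07 (SE 0.21) in spleen, and Arl5c at -0.06 (SE 0.35) in gut and -0.27 (SE 0.28) in spleen. In CPM, Arl5b averaged 57.9 in Maf-KO gut and 55.0 in WT gut, and Arl5c 74.1 in Maf-KO gut and 77.5 in WT gut. Of the nebulin family, Nebl (nebulette) stood at 0.46 (SE 0.44) in gut and 0.54 (SE 0.38) in spleen, and Lasp1, a small actin-binding relative, at 0.36 (SE 0.16) in gut and 0.13 (SE 0.13) in spleen. Laptm5, a lysosomal gene of blood cells that was abundant here, stood at 0.26 (SE 0.14) in gut and 0.09 (SE 0.11) in spleen. Laptm4a, the closest relative of Laptm4b, stood at -0.45 (SE 0.14, edgeR adjusted p = 0.403) in gut and -0.08 (SE 0.11) in spleen. Thus 0 of 6 paralogues were called in either tissue by edgeR, which called 0.151% of all genes in gut and 0.0151% in spleen. Of the other matrilins, Matn3 had 0 counts in all libraries and Matn1 and Matn4 did not pass the filter on low counts.

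**Figure D4:**
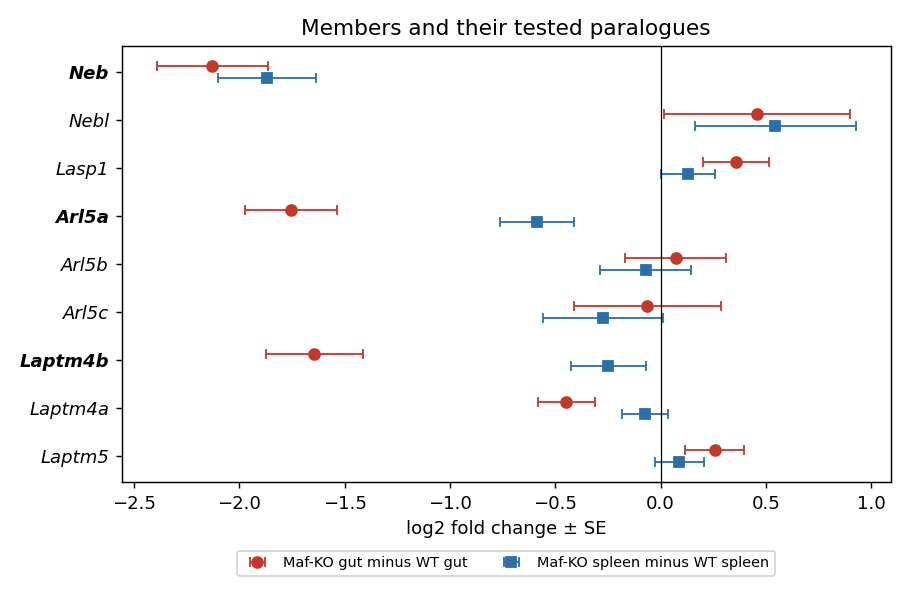
Log2 fold changes with SE of Neb, Arl5a and Laptm4b (bold) and their tested paralogues, for Maf-KO gut against WT gut (circles) and Maf-KO spleen against WT spleen (squares). The 3 members lie between -2.13 and -1.64 in gut, whereas the paralogues lie between -0.45 and 0.46.

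The genes that work with the members were examined as lists, chosen with earlier results of these data known. The single genes named from them were chosen after their values were seen. Over all genes edgeR called 0.151% in gut and 0.0151% in spleen, so a short list without a call says little. ARL5 proteins, in fly and human cells, recruit the GARP tethering complex, which catches vesicles returning from endosomes to the Golgi. Of 11 genes for this complex (Vps51 to Vps54), the golgins and their ARL GTPases, none was called in gut or spleen. Their median log2 difference was 0.00 in gut and 0.02 in spleen.

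LAPTM4B, in human cells, brings the leucine transporter of SLC7A5 and SLC3A2 to lysosomes. Of 12 genes for this transporter, the Ragulator and Rag proteins and the LAMP membrane proteins, none was called in either tissue, with medians of 0.07 in gut and -0.05 in spleen. Slc7a5 was at 0.44 (SE 0.23, edgeR adjusted p = 0.667) and Slc3a2 at 0.09 (SE 0.12) in gut. In human Tregs LAPTM4B also binds LRRC32, a docking receptor of latent TGF-beta also named GARP and unrelated to the tether, and lowers TGF-beta release. None of 7 genes of TGF-beta release was called in gut or spleen, with medians of 0.18 and 0.15. Lrrc32 averaged 406 CPM in Maf-KO gut and 140 CPM in WT gut (log2 difference 1.54, SE 0.34, edgeR adjusted p = 0.187). Itgb8, an integrin subunit that activates TGF-beta, averaged 28.7 CPM in Maf-KO gut and 57.6 CPM in WT gut (-1.0, SE 0.32, edgeR adjusted p = 0.445).

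Nebulin belongs to muscle, and the muscle genes were looked at for that reason. Of 15 sarcomere and thin filament genes, 5 passed the filter and none was called in either tissue. Their median log2 difference was 0.01 in gut and -0.09 in spleen. The giant sarcomere gene Ttn averaged 147 CPM in Maf-KO gut and 146 CPM in WT gut (log2 difference 0.01, SE 0.41). Actn2 averaged 6.92 CPM in Maf-KO spleen and 4.37 CPM in WT spleen (log2 difference 0.66, SE 0.14, edgeR adjusted p = 0.749). It was thus higher there, while 3 of the 5 genes were lower. Of 8 skeletal muscle markers, Myh1, Myh4 and Mb had 0 counts in all libraries, and the sum of all 8 was 2.09 to 2.87 CPM in Maf-KO gut, against 2.25 to 2.26 CPM in WT gut. In spleen this sum was 2.60 to 3.80 CPM in Maf-KO and 3.04 to 4.8 CPM in WT.

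Markers of cells that could have come through the sort were summed as well. Fibroblast markers summed to 3.04 to 16.4 CPM in Maf-KO gut and 6.78 to 21.4 CPM in WT gut, and smooth muscle markers to 18.4 to 34.4 CPM in Maf-KO gut and 11.2 to 17.7 CPM in WT gut. Most of the smooth muscle sum was Actg2, with means of 23.35 CPM in Maf-KO gut and 11.76 CPM in WT gut. Schwann cell and enteric glia markers summed to 1.04 to 1.22 CPM in Maf-KO gut and 0.946 to 1.13 CPM in WT gut. Epithelial markers ran from 142 to 155 CPM in Maf-KO gut and from 134 to 174 CPM in WT gut. Most of this sum was Epcam, with means of 123.6 CPM in Maf-KO gut and 145.5 CPM in WT gut. Cdh1 averaged 22.5 CPM in Maf-KO gut and 5.71 CPM in WT gut (log2 difference 1.98, SE 0.62, edgeR adjusted p = 0.425). Macrophage and dendritic cell markers ran from 75.7 to 230.2 CPM in Maf-KO gut and from 84.9 to 172 CPM in WT gut. B and plasma cell markers ran from 1125 to 3370 CPM in Maf-KO gut and from 2035 to 6343 CPM in WT gut. Jchain made up most of this sum, with means of 2224 CPM in Maf-KO gut and 4163 CPM in WT gut.

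Pancreatic acinar markers separated the gut groups, as the gut values of the members did. All 5 were lower, and their sum was 1.30 to 2.23 CPM in Maf-KO gut, against 19.0 to 108 CPM in WT gut. In spleen it was 1.95 to 7.05 CPM in Maf-KO and 1.39 to 2.22 CPM in WT, so there it did not follow the members. Its part in the gut result was not tested. None of the markers of these other cell types was called in either genotype comparison, where 0.151% of all genes were called in gut and 0.0151% in spleen.

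The libraries also showed which genes ran most like each member. The measure was Pearson's r of log2 CPM over all 10 libraries, which fall into 4 groups and share title numbers, so r is a description. The pair partners ranked high among 9462 genes, but r includes the gut libraries whose genotype difference chose both genes of each pair. Arl5a was 9th in likeness to Neb and Neb 13th in likeness to Arl5a (r = 0.94), while Matn2 was 8th in likeness to Laptm4b and Laptm4b 17th in likeness to Matn2 (r = 0.90). Across the pairs r lay between -0.11 and 0.24. Within the 6 spleen libraries r was 0.90 for Neb and Arl5a and 0.87 for Laptm4b and Matn2, but it was also 0.67 to 0.89 across the pairs. There Arl5a ranked 51st in likeness to Neb and Neb 44th to Arl5a. Matn2 ranked 138th in likeness to Laptm4b and Laptm4b 55th to Matn2. In likeness to Matn2, Neb (37th) and Arl5a (46th) came before Laptm4b, whereas for the other members the partner came before the genes of the other pair.

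The 3 genes most like Neb were Zmynd11, a chromatin reader (r = 0.96), the receptor gene Slamf1 (0.96) and the membrane protease gene Adam8 (0.95). In gut these 3 genes stood at -0.16, -0.78 and -2.21, against -2.13 for Neb, and Adam8 was itself called in gut. The value of Zmynd11 shows that a high r over these libraries can rest on the tissues. Most like Arl5a were the Mediator subunit gene Med7 (0.97), the small GTPase gene Rap2a (0.96) and Kctd12 (0.95), with gut log2 differences of -0.73, -1.11 and -1.90. Most like Laptm4b were Mturn (0.94), the deubiquitinase gene Usp8 (0.94) and Nars2 (0.92), a mitochondrial tRNA synthetase gene. Most like Matn2 were Klhl6 (0.98), the ciliary transport gene Ift46 (0.96) and D6Wsu163e (0.96).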

How the data were processed

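The authors deposited raw read counts for each Entrez gene. Per the submitters' processing notes, the tools were Subread, featureCounts and limma, with the builds GRCm38 and mm10; their versions and the strand setting are not given. The authors also deposited log2 FPKM values for 12252 genes, which matched the count column of the same library best in 10 of 10 cases.

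Counts were tested with edgeR 4.0.16 (R 4.3.3). Of 27179 genes, 13214 passed filterByExpr (minimum count 10, minimum total 15), all 4 members among them. Entries with an Entrez number but no symbol (852, at most 0.203% of counts) were kept. Library totals were TMM scaled (factors 0.887 to 1.12). Quasi-likelihood F tests came from 1 fit of all 10 libraries with 4 groups, and p values were adjusted by Benjamini-Hochberg across the 13214 genes, with calls under 0.05. The SE is the log2 fold change divided by the square root of F. The fit was tested on simulated data. A count of 3, taken as floor, is 0.2145 to 0.3502 CPM, for counting error alone. Replicates of a group differed by more than counting noise (chi-square per degree of freedom 14.8 to 35.1).

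Members, lists and rules were chosen with earlier results of these data known. Named genes were the members, Maf, tested genes within 500 kb of a pair, the paralogues tested, and for each member the 3 genes of at least 5 CPM with the highest r, leaving out Maf, other members, predicted, ribosomal and mitochondrial genes and receptor segments. Single genes of the partner lists, of the marker sets and of the called gut pairs were also named, outside this rule. Those of the partner lists were chosen after their values were seen. Positions came from RefSeq and GENCODE on GRCm38. Libraries of both tissues with the same title number deviated together from their group means (r from 0.302 to 0.487 in 4 pairs). In 29 other pairs of libraries from different groups r ran from -0.487 to 0.296. The 2 libraries of a gut group deviate as mirror images, so the 4 values are not independent. The title number served as a random effect in a limma 3.58.1 alternative. DESeq2 1.42.0 was another, beside leaving out each library.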

Additional observations from a re-analysis of the deposited data

How the results depend on the processing

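In spleen, edgeR called 2 genes and 0 of the members. The number of genes was 12 without the filter on low counts, 18 with DESeq2, 5 with limma-trend on log2 FPKM, 1 with spleen libraries alone, and 0 with limma-voom both without and with the title number as a random effect (321 and 308 at an unadjusted p under 0.05). Leaving out 1 library gave 2 to 9. One member, Neb, was called without the filter (log2 difference -1.88) and with DESeq2 (-1.87). Leaving out 1 library gave 0 to 1 members called and -2.09 to -1.70 for Neb. All 4 members stayed lower in spleen under all 18 alternatives.

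In gut, where the members were chosen, the 20 called genes became 74 without the filter, 107 with DESeq2, 33 with limma-voom, 42 with the title number as a random effect, 12 with gut libraries alone and 9 with the replicate number as a block. Without 1 library they were 4 to 22. The 4 called members became 1 with gut libraries alone, 2 with the replicate number as a block and 0 to 3 without 1 library. None was called when either Maf-KO gut library or WT gut replicate 3 was left out, and 1 was called when WT gut replicate 1 was. Leaving out Maf-KO spleen replicate 2 or 3, or WT spleen replicate 1 or 2, left 2 called. Without 1 library the gut log2 difference ran from -1.98 to -1.47 for Arl5a and from -1.89 to -1.43 for Laptm4b, and that of Matn2 in WT gut over WT spleen from -1.50 to -0.82. For Laptm4b WT gut over WT spleen reversed to -0.077 with limma-trend on log2 FPKM. The other members were lower there too, at 1.75 against 2.0 for Arl5a, 2.25 against 2.46 for Neb and -1.39 against -1.12 for Matn2. The cause was not tested. The replicate numbers did not pair libraries within a tissue (r from -0.388 to -0.0468), and with this block Neb in spleen had an edgeR adjusted p of 0.0766 and the count of spleen calls stayed at 2. Depth limits Matn2 and Laptm4b most, with as few as 14 and 40 counts in a Maf-KO gut library.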
